A study of Homo sapiens with 4 samples.

Results

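The nuclear genes that encode the subunits of the oxidative phosphorylation complexes were compared between HEK293T wild-type (WT) cells and HEK293T Helz-null cells. Members were taken by a rule that uses symbols and no measured value, as the genes whose symbol begins with NDUFA, NDUFB, NDUFC, NDUFS or NDUFV and a number, with UQCR, with ATP5 or with COX4 to COX8 and the letter A, B or C, together with SDHA, SDHB, SDHC, SDHD and CYC1. Of the 27011 genes in the deposited table, 92 had such a symbol. The 10 that do not encode a subunit were left out, namely the pseudogenes ATP5EP2 and UQCRBP1, the antisense genes NDUFA6-AS1, NDUFB2-AS1 and NDUFV2-AS1, the readthrough genes ATP5J2-PTCD1 and NDUFC2-KCTD14, and COX7A2L, ATP5S and ATP5SL, which are assembly or coupling factors. This left 82 genes, of which 36 belong to complex I, 4 to complex II, 10 to complex III, 16 to complex IV and 16 to complex V. NDUFA4 and its paralog NDUFA4L2 were counted under complex IV, since NDUFA4 is now known as a subunit of cytochrome c oxidase despite its name. The symbol rule does not take COX4I1 and NDUFAB1, which are subunits too and are described with the other genes of the pathway.

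HEK293T is a widely used immortal line that goes back to embryonic human kidney. Editing of helz with Cas9 and a guide RNA left a deletion that shifts the reading frame, and the Helz-null state is represented here by 1 line, so that properties of that line and the loss of HELZ cannot be told apart. The labels name no treatment and no further allele in either line, and RNA was sequenced from 2 biological replicates of each, 4 libraries in all. HELZ is a putative RNA helicase, and the comparison asks how mRNA levels differ in its absence.

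Oxidative phosphorylation is carried out by 5 protein complexes of the inner mitochondrial membrane. Complexes I and II feed electrons from NADH and succinate to coenzyme Q, complex III passes them on to cytochrome c, complex IV reduces oxygen, and complex V, the ATP synthase, makes ATP from the proton gradient that complexes I, III and IV build. Most subunits are encoded in the nucleus and imported, a few central ones of complexes I, III, IV and V are encoded by mitochondrial DNA, and complex II is wholly nuclear. The transcription factors NRF1, GABP (an ETS factor) and YY1 are known to act at many of the nuclear promoters.

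The libraries held between 41745401 and 70464140 counts, and the members took between 1.11% and 1.13% of them in each library. HELZ itself was at 99.8 and 104 CPM (counts per 1e6 counts, scaled by edgeR's TMM method) in the WT libraries and at 36.98 and 37.88 CPM in the Helz-null libraries. Replicates differed by more than counting noise (chi-square per degree of freedom of 4.15 in WT and 3.01 in Helz-null), and p-values measure the spread between these libraries. Of genes typical of this line, NEFM, NEFL, VIM, KRT8 and KRT18 were present, whereas PAX2 (5.19 and 5.37 CPM in WT, 7.07 and 6.48 in Helz-null) and LHX1 (2.98 and 2.68 in WT, 6.58 and 4.89 in Helz-null) were low, and both had higher values in both Helz-null libraries but were not among the genes tested. Of the others, KRT8 (log2FC -0.98, adjusted p = 7.13e-15), KRT18 (-0.16) and VIM (-0.14) were called lower in Helz-null, NEFM was called higher (0.89, adjusted p = 1.26e-25) and NEFL was not called. What part these differences have in the results was not tested. Of genes typical of blood, liver, heart, muscle and fat cells, PTPRC, ALB, MYH7, CKM and ADIPOQ were at or below 0.317 CPM, and ACTN2 lay between 4.39 and 5.98 CPM. Less RNA per cell and fewer cells that express a gene cannot be told apart in bulk RNA.

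The mRNAs of the oxidative phosphorylation subunits differed little between the lines. Of the 82 members, 74 were among the 10978 genes tested, and with edgeR's quasi-likelihood test at an adjusted p under 0.005, 12 were lower, 3 were higher and 59 were not called in Helz-null cells. Over all tested genes, 15.5% were called lower and 13.9% higher, against 16.2% and 4.05% of the tested members, so that the share of lower calls was near the background and that of higher calls was below it. The median log2 fold change (log2FC, Helz-null against WT) of the members was -0.025, with 51 below 0 and 23 above, and that of all tested genes was -0.00091. Sizes were small. The median absolute log2FC was 0.052 for the members, 0.106 for all tested genes and 0.091 for the 6010 other tested genes whose level per length was at least that of the lowest tested member. These 6010 genes are not matched to the members. Their median level per length (FPKM) was 26.3 against 109 for the members, and their standard errors reached 0.165 against 0.057. Of the members, 2 changed by more than 1.2-fold, COX5A and UQCRC1, and for each of the 59 members that were not called the 95% interval lay within a 1.2-fold change in either direction, with standard errors of at most 0.057 on the log2 scale. The 2 groups of libraries did not overlap for 31 members that were lower in Helz-null and 11 that were higher, where 35.7% and 34.9% of all tested genes did so in each direction.

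The balance of lower and higher calls depends on the scaling. With library size as the only scaling, 5 members were lower and 5 higher and their median log2FC was 0.0078, while the median of all tested genes moved to 0.032. Over all tested genes 12.01% were then lower and 19.2% higher, so that the members' shares of lower and of higher calls were both below the background. The distance of the members' median from that of all genes was -0.024 under both scalings, since a change of scaling moves nearly all genes alike by construction. That distance was -0.017 with the GC correction described next and -0.013 with a correction for gene width. It was -0.0092 without WT replicate 2 and -0.050 without WT replicate 1. The members lower under both scalings were COX5A, UQCRC1, COX8A, NDUFA4 and ATP5I, and those higher under both were SDHA, NDUFB6 and ATP5D, to which library size added NDUFB2 and NDUFC2. With a correction for the GC content of the transcripts the split was 17 lower and 1 higher, where 19.2% and 10.6% of all tested genes were called in each direction. DESeq2 called 6 lower and 1 higher, beside 11.7% and 10.04% of all tested genes, and did not call NDUFA6, NDUFA10, NDUFB6, SDHA, SDHD, UQCR10 and COX7B. COX5A, UQCRC1, COX8A and ATP5I were also the members called with each of the 4 libraries left out in turn.

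**Figure D1:**
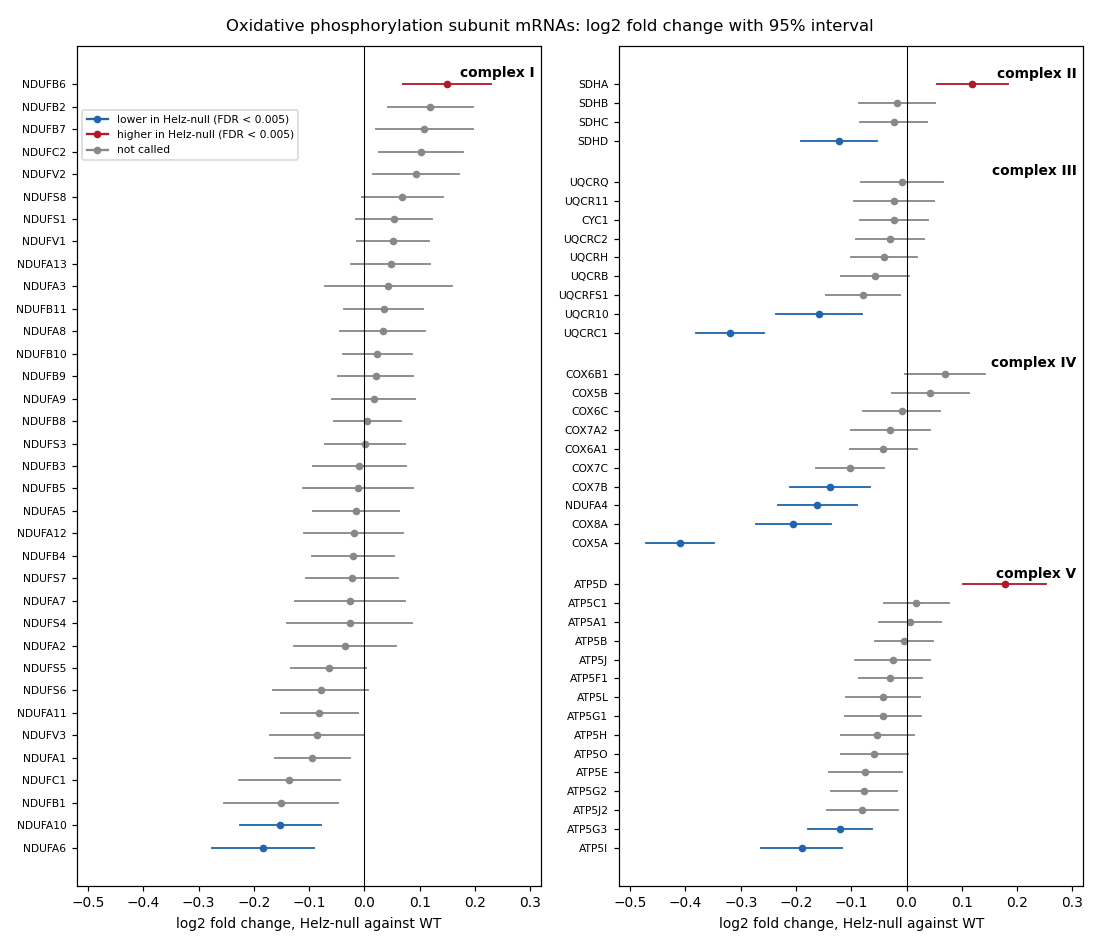
Log2 fold change of the tested members, Helz-null against WT (x axis), grouped by complex on the y axis and sorted by value. Points are estimates from edgeR with TMM scaling, lines are 95% intervals, and colours mark members called lower and the 3 called higher (5 lower and 5 higher with library size as the only scaling), with COX5A and UQCRC1 farthest from 0.

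Levels per length of mRNA, as FPKM averaged over the 4 libraries, spanned 10.9 to 736 among the tested members. The complexes with the highest median level were IV (239 FPKM) and V (225 FPKM), followed by III (109), I (83.5) and II (78.3). The member with the highest level was COX7C (736 FPKM), a small membrane subunit of cytochrome c oxidase. ATP5B, the catalytic beta subunit of the ATP synthase, came to 604 FPKM, and UQCRH, the hinge protein of complex III, to 376. In complex I the highest was NDUFB10 with 268 FPKM, close to NDUFS5 (266) and NDUFA1 (265), and in complex II it was SDHB with 112. The lowest tested member was NDUFA10 at 10.9 FPKM, an accessory subunit of complex I.

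**Figure D2:**
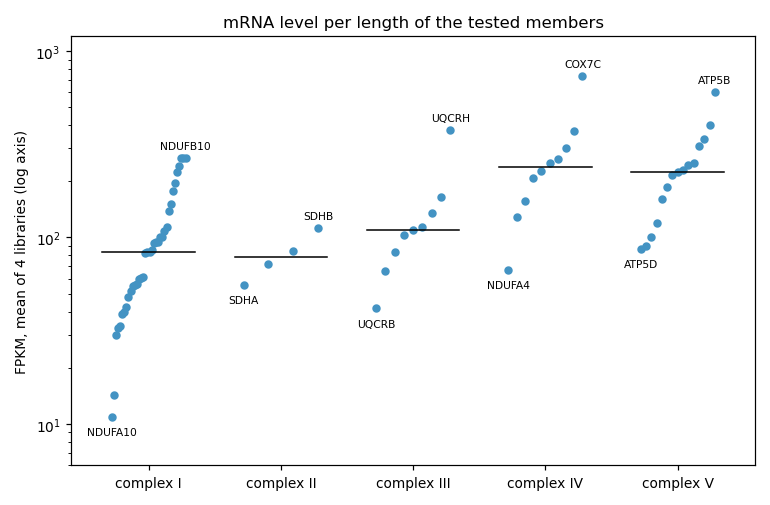
Level per length (FPKM, mean of the 4 libraries, log axis) of the 74 tested members by complex, with 1 point per gene and a line at the median of each complex. The highest and lowest member of each complex are named, from COX7C at 736 FPKM down to NDUFA10 at 10.9 FPKM.

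The 8 members that were not tested are nearly all tissue-restricted paralogs of a widely expressed subunit. COX6A2, COX7B2 and ATP5L2 had 0 counts in every library, which allows up to 0.073 CPM in the library with the fewest scaled counts if 3 counts are taken as the floor, a limit that covers counting error only. COX7A1 had 0 and 0 counts in WT and 3 and 1 in Helz-null, COX8C had 1 and 3 against 0 and 1, and UQCRHL had 5 and 0 against 7 and 0. COX6B2 had 12 and 4 counts in WT and 8 and 14 in Helz-null. NDUFA4L2, known as a hypoxia-induced paralog of NDUFA4, had 51 and 12 counts in WT and 16 and 30 in Helz-null. No direction can be read from these counts. The ubiquitous paralogs COX6A1, COX6B1, COX7A2, COX7B, COX8A, UQCRH and ATP5L made up at least 99.9% of the summed FPKM of their pair in each library, and NDUFA4 made up between 99.0% and 99.7%.

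Sequences upstream of the members were searched for the motifs of the transcription factors named above, and sites of called members are shown here because the regulators they are named after are measured below. RefSeq promoters (GRCh38.p14, from 250 bases before to 50 bases after the start) were found for 64 of the 82 members and 60 of the 74 tested ones. Searched on both strands were the NRF1 motif (GCGC and TGCGC with 1 base of any kind, N, between them), the ETS motif CCGGAAG and the YY1 motif AAGATGGCG, none of which holds another. Each sequence reads 5′ to 3′ on the strand of its gene, and the capitals mark the motif as it reads on that strand.
SDHA (chr5:218144-218173, plus strand): ggtccgctttGCGCAGGCGCggcgccccca
SDHA (chr5:218291-218320, plus strand): ccggtgtggtGCGCAGGCGCagtctgcgca
SDHD (chr11:112086753-112086782, plus strand): agctgtgtttGCGCATGCGCgacgggtgtg
UQCRC1 (chr3:48609674-48609703, minus strand): gtacggtactGCGCCTGCGCcgcgaccgcc
UQCR10 (chr22:29767351-29767380, plus strand): gtcggccccaGCGCAGGCGCggtggcgcga
ATP5I (chr4:674431-674460, minus strand): cagcctttgtGCGCGTGCGCctcacgtgac
COX8A (chr11:63974591-63974619, plus strand): cagctccagaaCTTCCGGccagcgcagcc
NDUFA6 (chr22:42090729-42090757, minus strand): atgctttggcAAGATGGCGgggagcggcg
The first 6 hold the NRF1 motif, COX8A the ETS motif and NDUFA6 the YY1 motif. SDHA held 4 NRF1 matches, which begin 166, 117, 68 and 19 bases before its start.

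At least 1 of the 3 motifs stood in 34 of the 60 promoters of tested members (56.7%), compared with 33.8% of the 8884 promoters of tested genes and 17.0% of all 27305 promoters. The NRF1 motif stood in 15 of the 60, against 12.9% of the promoters of tested genes and 6.28% of all promoters, the ETS motif in 18 of the 60, against 20.9% and 10.7%, and the YY1 motif in 8 of the 60, against 4.47% and 1.85%. Of the 9 members called lower that had a promoter, 6 held a motif, and of the 49 that were not called, 27 did. COX5A, NDUFA10 and COX7B were the members called lower in whose promoter none of these letters was found. The NRF1 motif alone stood in 4 of the 9 called lower and in 10 of the 49 not called, and 4 of the 15 tested members with this motif and 5 of the 45 without it were called lower, a difference that was not tested. The median log2FC was -0.023 in the 15 with the NRF1 motif and -0.027 in the 45 without it, -0.024 and -0.028 for ETS, and -0.025 and -0.029 for YY1.

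In complex II, which is succinate dehydrogenase of the citric acid cycle as well, SDHA was called higher and SDHD lower. SDHA, the flavoprotein that oxidises succinate, was at 151 and 147 CPM in WT and at 163 and 161 CPM in Helz-null. SDHA thus rose by 8.61% (log2FC 0.12, standard error 0.032, adjusted p = 0.0024), a call that held with 1 of the 4 libraries left out and was lost without WT replicate 2 (adjusted p = 0.0090), Helz-null replicate 1 (0.037) or Helz-null replicate 2 (0.020), and also under the GC correction (0.047). SDHD, which anchors the complex in the membrane with SDHC, was at 137 and 142 CPM in WT and at 131 and 126 CPM in Helz-null. SDHD fell by 8.13% (log2FC -0.12, standard error 0.034, adjusted p = 0.0032), and the call was likewise lost without WT replicate 2 (adjusted p = 0.021), Helz-null replicate 1 (0.0055) or Helz-null replicate 2 (0.12). In both genes the 2 groups did not overlap. SDHB, the iron-sulfur subunit, was at 130.3 and 127 CPM in WT and at 129.9 and 125 CPM in Helz-null, with a 95% interval of its log2FC from -0.09 to 0.05. SDHC was at 207 and 209 CPM in WT and at 203 and 207 CPM in Helz-null, with an interval from -0.08 to 0.04. SDHA shares sequence with the pseudogenes SDHAP1, SDHAP2 and SDHAP3, and their levels, between 3.29 and 6.18 CPM, were low beside that of SDHA. Summed over the 4 subunits, the CPM of the 2 groups differed by -0.50% with TMM scaling and by 1.82% with library size only.

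Complex I is the largest of the complexes. Of its 36 members 3 were lower (8.33%) and 1 was higher (2.78%), where 15.5% and 13.9% of all tested genes were, and the median log2FC was -0.0099, or 0.023 with library size as the only scaling and 0.018 without WT replicate 2, so that its sign is not settled. Summed CPM was 3355 and 3419 in WT and 3343 and 3401 in Helz-null. The core subunits carry the flavin and the iron-sulfur clusters. NDUFV1 and NDUFV2, the subunits at the site of NADH oxidation, had log2FC values of 0.05 and 0.09 and were not called, and NDUFS1 had 0.05.

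Among the 29 accessory subunits of complex I, which surround the core, 2 were lower and 1 was higher. NDUFA6, a member of the LYR family, was at 60.8 and 60.6 CPM in WT and at 50.9 and 55.6 CPM in Helz-null. It fell by 11.9% (log2FC -0.18, standard error 0.046, adjusted p = 0.0012), and the call was lost without Helz-null replicate 1 (log2FC -0.13, adjusted p = 0.072), the lower of its 2 Helz-null libraries. NDUFA6-AS1, on the opposite strand, was at 4.27 to 5.41 CPM, and whether counting used strand is not stated. NDUFA10 was at 113 and 110.4 CPM in WT and at 104 and 98.2 CPM in Helz-null. NDUFA10 fell by 0.15 on the log2 scale (standard error 0.036, adjusted p = 0.00067), and the call was lost without Helz-null replicate 2 (adjusted p = 0.079). NDUFB6, of the membrane arm, was at 69.2 and 70.6 CPM in WT and at 78.4 and 76.8 CPM in Helz-null. NDUFB6 rose by 11.0% (log2FC 0.15, standard error 0.039, adjusted p = 0.0019), and that call was lost without WT replicate 1 (adjusted p = 0.013), Helz-null replicate 1 (0.032) or Helz-null replicate 2 (0.011). For all 3 genes the groups did not overlap, which was a condition for naming them. Over all tested genes, 35.7% were lower and 34.9% higher without overlap. Just outside the threshold stood NDUFB2 (log2FC 0.12, adjusted p = 0.0099), NDUFC1 (-0.14, adjusted p = 0.014) and NDUFB1 (-0.15, adjusted p = 0.015). Reads of NDUFC2 and of the readthrough gene NDUFC2-KCTD14 (92.2 to 105 CPM) may be shared, and NDUFB2 has an antisense gene, NDUFB2-AS1, at 24.7 to 28.5 CPM.

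In complex III, 2 of the 9 tested members were lower and 0 were higher, beside 15.5% and 13.9% of all tested genes, with a log2FC below 0 for each of the 9 under TMM scaling. The median log2FC was -0.041, or -0.0078 with library size as the only scaling. UQCRC1, a core protein that faces the matrix, was the member with the largest difference in this complex. It was at 244 and 239.7 CPM in WT and at 191 and 197 CPM in Helz-null, so that the groups were well apart. UQCRC1 fell by 19.9% (log2FC -0.32, standard error 0.030, adjusted p = 2.02e-11). UQCRC2, the other core protein, was at 236 and 226 CPM in WT and at 227 and 226 CPM in Helz-null, with a 95% interval of its log2FC from -0.09 to 0.03. UQCR10, a small accessory subunit, was at 108 and 117 CPM in WT and at 97.3 and 104 CPM in Helz-null. It fell by 10.4% (log2FC -0.16, standard error 0.038, adjusted p = 0.00088), with the call lost without WT replicate 2 (adjusted p = 0.026) or Helz-null replicate 1 (0.044). The electron-carrying subunits CYC1 and UQCRFS1 were not called, with log2FC values of -0.02 and -0.08, and UQCRH, UQCRB, UQCRQ and UQCR11 lay between -0.06 and -0.01. Summed CPM of the complex was 1665 and 1667 in WT and 1551 and 1590 in Helz-null, a difference of -5.74%, or -3.54% with library size only. As group means, the sum went from 1666 CPM in WT to 1570 in Helz-null, and UQCRC1 alone went from 242 to 194.

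Complex IV had 4 lower and 0 higher of 10 tested members, beside 15.5% and 13.9% of all tested genes (17.5% and 15.2% of those with a level per length of at least that of the lowest tested member), and a median log2FC of -0.072 (-0.039 with library size as the only scaling and also with a correction for gene width). COX5A, a subunit on the matrix side of cytochrome c oxidase, differed more than any other tested member. It was at 219 and 224 CPM in WT and at 165 and 168 CPM in Helz-null, and both Helz-null libraries lay far below both WT libraries. COX5A fell by 24.7% (log2FC -0.41, standard error 0.031, adjusted p = 3.18e-14). COX8A, a small membrane subunit, was at 159 and 169 CPM in WT and at 141 and 143 CPM in Helz-null, and the groups were apart by more than the replicates. It fell by 13.2% (log2FC -0.20, standard error 0.034, adjusted p = 3.44e-06). NDUFA4 was at 139 and 152 CPM in WT and at 130.1 and 129 CPM in Helz-null. It fell by 10.6% (log2FC -0.16, standard error 0.036, adjusted p = 0.00030), and the call was lost without WT replicate 2 (adjusted p = 0.019), the higher of its WT libraries. COX7B, another small membrane subunit, was at 122 and 130.1 CPM in WT and at 112 and 116 CPM in Helz-null. It fell by 9.19% (log2FC -0.14, standard error 0.036, adjusted p = 0.0016), with the call lost without WT replicate 2 (adjusted p = 0.038) or Helz-null replicate 1 (0.041).

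The groups did not overlap in any of these 4 genes, which was a condition for naming them (35.7% of all tested genes were lower without overlap). COX7C was at 304 and 317 CPM in WT and at 281 and 296 CPM in Helz-null and just missed the threshold (log2FC -0.10, adjusted p = 0.0063). COX5B, which with COX5A belongs to the subunits outside the membrane, was at 110.4 and 115 CPM in WT and at 116 and 115 CPM in Helz-null, with a 95% interval of its log2FC from -0.03 to 0.11. COX6B1, on the side of cytochrome c, had a log2FC of 0.07, and COX6A1, COX6C and COX7A2 lay between -0.04 and -0.01. Summed CPM of complex IV was 1621 and 1685 in WT and 1508 and 1544 in Helz-null. The difference came to -7.68%, or -5.52% with library size only. As group means, the sum went from 1653 CPM in WT to 1526 in Helz-null, and COX5A alone went from 221 to 166.

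**Figure D3:**
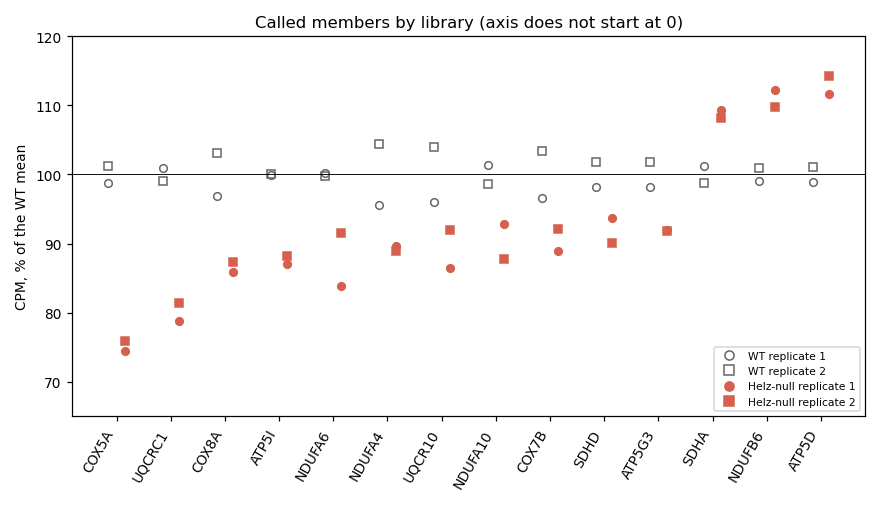
CPM of called members in each library, as a percentage of the mean of the 2 WT libraries (y axis, which does not start at 0), with open symbols for WT and filled symbols for Helz-null. The filled symbols stand below the open ones for the members called lower and above them for SDHA, NDUFB6 and ATP5D, and the distance is largest for COX5A.

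In complex V, 2 of 15 tested members were lower (13.3%) and 1 was higher (6.67%), beside the same 15.5% and 13.9% of all tested genes, with a median log2FC of -0.043 (-0.010 with library size as the only scaling). The F1 head and central stalk, where ATP is made, had 0 lower and 1 higher of 5 members. ATP5D, the delta subunit of the stalk, was at 80.3 and 82.0 CPM in WT and at 90.5 and 92.7 CPM in Helz-null. ATP5D rose by 13.1% (log2FC 0.18, standard error 0.037, adjusted p = 0.00014), with the call lost without Helz-null replicate 2 (adjusted p = 0.010) and also under the GC correction (adjusted p = 0.27). ATP5B was at 1119 and 1110.5 CPM in WT and at 1105 and 1116 CPM in Helz-null, the groups overlapped, and the 95% interval of its log2FC ran from -0.06 to 0.05. ATP5A1, the alpha subunit, was at 456 and 448 CPM in WT and at 453 and 455 CPM in Helz-null. The peripheral stalk, made up of ATP5F1, ATP5H, ATP5J and ATP5O, had no call, with log2FC values from -0.06 to -0.02.

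ATP5I, subunit e in the membrane part where the synthase pairs up, was at 97.6 and 97.7 CPM in WT and at 85.0 and 86.1 CPM in Helz-null. It fell by 12.3% (log2FC -0.19, standard error 0.036, adjusted p = 3.81e-05), and the replicates lay closer to each other than the groups did. The c-ring is built from 1 mature protein that 3 genes encode, ATP5G1, ATP5G2 and ATP5G3. ATP5G3 was at 357 and 371 CPM in WT and at 335 and 334 CPM in Helz-null, and the WT libraries were both higher. It fell by 8.03% (log2FC -0.12, standard error 0.029, adjusted p = 0.00070), with the call lost without Helz-null replicate 1 (adjusted p = 0.014) or Helz-null replicate 2 (0.020). ATP5G1 and ATP5G2 were not called, with log2FC values of -0.04 and -0.08. By FPKM, ATP5G1, ATP5G2 and ATP5G3 made up 41.1%, 40.6% and 18.3% of the c subunit mRNA in WT and 41.8%, 40.5% and 17.7% in Helz-null. The summed CPM of complex V was 4259 and 4299 in WT and 4153 and 4205 in Helz-null, a difference of -2.33% that shrank to -0.050% with library size only. Reads of ATP5J2 and of the readthrough gene ATP5J2-PTCD1, at 130 to 137 CPM, may be shared.

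COX5A and UQCRC1, the members with the largest differences, lay among genes that differed in the same direction. For each tested member the 20 nearest tested genes on the chromosome, members left out, were taken as neighbours (10 on either side, fewer near a chromosome end). On hg19, COX5A spans positions 75212132 to 75230424 of chromosome 15 (minus strand). Its 20 neighbours, over 1.60 Mb, all had a log2FC below 0, with a median of -0.37 and a range from -0.72 to -0.16, and 18 of them were called lower. UQCRC1 spans positions 48636435 to 48648409 of chromosome 3 (minus strand). Its 20 neighbours, over 1.17 Mb, were likewise all below 0, with a median of -0.24 and a range from -0.43 to -0.038, and 15 were called lower. After the median of the neighbours was taken off, the log2FC of COX5A was -0.039 (adjusted p = 0.33) and that of UQCRC1 was -0.075 (adjusted p = 0.045), and neither was called. What part the neighbourhood has in either difference was not tested.

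**Figure D4:**
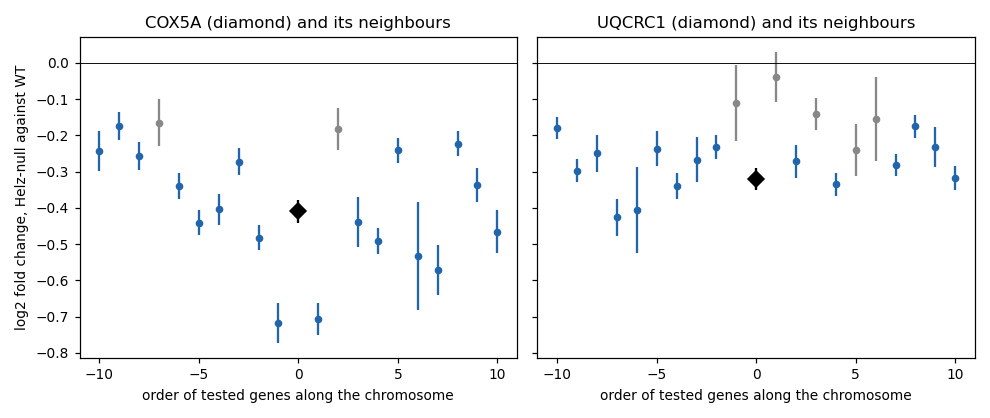
Log2 fold change (Helz-null against WT, with standard errors) of COX5A and UQCRC1 (black diamonds) and of the 10 nearest tested genes on either side, in their order on the chromosome (x axis). Blue points are called lower and grey points are not called; the neighbours lie between -0.72 and -0.16 around COX5A and between -0.43 and -0.038 around UQCRC1.

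Other members had neighbours with a median shift of at least 0.15, namely NDUFC1 and NDUFB2. NDUFC1 (log2FC -0.14) had neighbours with a median of -0.18 over 12.95 Mb, 10 of which were called lower. NDUFB2 (log2FC 0.12) had neighbours with a median of 0.18 over 6.99 Mb, 12 of which were called higher. With the median of the neighbours taken off for every gene, 9 members were lower and 3 higher, beside 13.6% and 12.6% of all tested genes. COX5A, UQCRC1, NDUFA6 (adjusted p = 0.057) and ATP5G3 (adjusted p = 0.14) were no longer called, and ATP5L was newly called lower (log2FC -0.12, adjusted p = 0.0035). COX8A (log2FC -0.22) and ATP5I (-0.25) differed no less on this scale, and so did NDUFA10 (-0.20) and UQCR10 (-0.23). Across the 74 tested members the log2FC and the median of the neighbours had a Pearson correlation of 0.60 and a Spearman correlation of 0.36, and the Pearson value was 0.34 without COX5A and UQCRC1. These describe genes of the same 4 libraries, which are not independent. The correlation of log2FC was 0.24 with the GC content of the transcript (73 members), -0.0083 with gene width and -0.088 with FPKM.

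**Figure D5:**
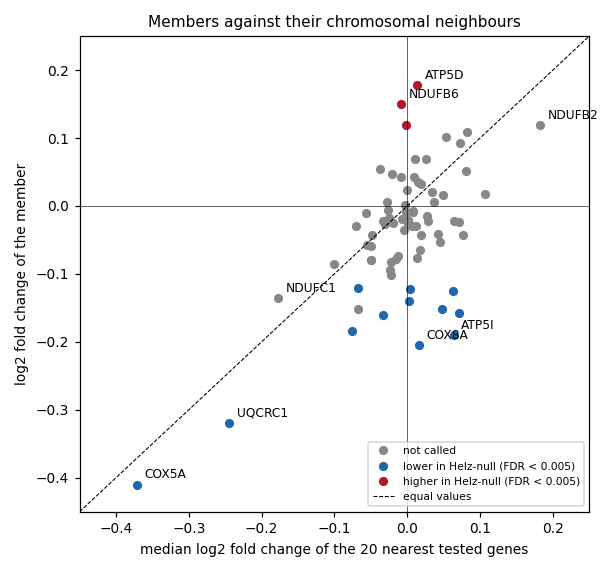
Log2 fold change of each of the 74 tested members (y axis) against the median log2 fold change of its nearest tested genes, up to 20 (x axis), both Helz-null against WT with TMM scaling. COX5A and UQCRC1 lie near the line of equal values, whereas COX8A, ATP5I, ATP5D and NDUFB6 lie away from it, with neighbours near 0.

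Genes that act with the complexes were taken from lists by function, whose counts of lower and higher calls are to be read beside the 15.5% and 13.9% of all tested genes. Subunits outside the symbol rule had no call among 5 tested, and COX4I1, the largest nuclear-encoded subunit of complex IV, was at 232 and 229 CPM in WT and at 220.4 and 233 CPM in Helz-null. Cytochrome c (CYCS), which carries electrons from complex III to complex IV, was at 492 and 503 CPM in WT and at 429 and 436 CPM in Helz-null and fell by 0.20 on the log2 scale (standard error 0.028, adjusted p = 1.26e-07). Of 50 assembly factors 11 were lower and 2 higher, with a median log2FC of -0.074. COX20, which assists the assembly of complex IV, was at 49.4 and 45.3 CPM in WT and at 27.1 and 29.2 CPM in Helz-null (log2FC -0.75, adjusted p = 1.80e-14), and SURF1, also of complex IV assembly, was at 17.1 and 15.3 CPM in WT and at 20.4 and 20.8 CPM in Helz-null (log2FC 0.34, adjusted p = 0.00020). NDUFAF3, a complex I assembly factor called lower with a log2FC of -0.32, is one of the neighbours of UQCRC1.

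Of 14 enzymes of the citric acid cycle 4 were lower and 1 was higher (median log2FC -0.057). IDH3A and IDH3B, subunits of isocitrate dehydrogenase, had log2FC values of -0.47 (adjusted p = 3.70e-15) and 0.18 (adjusted p = 9.91e-05), and the neighbours of IDH3A had a median of -0.36. In coenzyme Q synthesis 2 of 13 genes were lower and 0 higher (median -0.043), and ADCK3, with a log2FC of -0.66 (adjusted p = 4.13e-18), had neighbours with a median of -0.72. In mitochondrial import 5 of 19 were lower and 2 higher (median -0.099). TOMM20, an import receptor, had a log2FC of -0.60 (adjusted p = 2.14e-21) beside neighbours with a median of -0.45, and TIMM21, of the inner membrane translocase, had 0.48 (adjusted p = 1.11e-09) beside 0.56. Of the 13 genes encoded by mitochondrial DNA, 0 were in the table by symbol and they are not analysed here.

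Among regulators of mitochondrial genes and transcripts 4 of 17 tested were lower and 1 was higher (median log2FC -0.076). TFAM, which packages and transcribes mitochondrial DNA, was at 246 and 255 CPM in WT and at 192 and 197 CPM in Helz-null. TFAM fell by 0.36 on the log2 scale (standard error 0.030, adjusted p = 6.63e-13) while its neighbours had a median of 0.014. POLRMT, the mitochondrial RNA polymerase, was at 82.1 and 87.2 CPM in WT and at 99.7 and 99.3 CPM in Helz-null and rose by 0.24 on the log2 scale (standard error 0.037, adjusted p = 1.84e-06). The factors whose motifs stand in the promoters shown above were not called. NRF1 had a log2FC of -0.04 with a 95% interval from -0.17 to 0.09, GABPA one of -0.04 with an interval from -0.10 to 0.03, and YY1 one of -0.02 with an interval from -0.09 to 0.05.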

How the data were processed

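RNA-Seq libraries were made by the authors with the TruSeq RNA Sample Prep Kit and sequenced in pairs. Per the study's methods, ribosomal reads were removed with Bowtie2, the rest mapped to hg19 with TopHat2 and counted per gene with QuasR; annotation and use of strand are not given in the sources used here. The deposited counts are not normalized, and FPKM was calculated here from them with the gene width (in bases) of the same table. The genes tested were the 10978 of the authors' deposited comparison, whose fold changes, CPM and p-values were not used; 8 of 82 members were not among them.

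The test was edgeR 4.0.16 in R 4.3.3 (TMM scaling, glmQLFit and glmQLFTest, with no term but genotype). A gene was called at a Benjamini-Hochberg adjusted p under 0.005. DESeq2 1.42.0 was an alternative. Other alternatives covered scaling, gene filters, thresholds, a replicate block, GC and width corrections, the neighbours' median as an offset and single libraries left out. For each library, 3 counts correspond to 0.043 to 0.073 CPM. Gene positions came from the GENCODE annotation on GRCh37 (66 members matched by symbol, 16 by an older symbol), promoters from RefSeq. In simulated data of 10978 genes, 43 of 64 genes with a planted log2 change of 0.25 and 62 of 63 with 0.5 were called, with 0 wrong directions.

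Genes named were HELZ, SDHA to SDHD, up to 4 called members per direction in each other complex with the largest change and no overlap between groups, the highest member of each complex, paralog families, untested members, members whose neighbours had a median shift of at least 0.15, and the called gene with the largest change per direction in each list; others are members or regulators named for their role. A member enters the counts but is not reported here by its own values. The symbol rule uses no measured value, but it and the lists were chosen with earlier results of these data known.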

Additional observations from a re-analysis of the deposited data

How the results depend on the processing

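No called member changed sign under any alternative run, but calls near the threshold did not hold throughout. The cause was not tested for any of these changes beyond what each setting does by construction. With library size as the only scaling, the members' median was 0.0078 with 5 lower and 5 higher, beside 12.01% and 19.2% of all tested genes. Complex I then had 0 lower and 3 higher, complex II 0 lower, complex III 1 lower and complex V 1 lower. Medians were 0.013 in complex II, -0.0078 in complex III and -0.010 in complex V. The GC correction gave 1 higher in all, with 6 lower in complex I, 4 lower and 0 higher in complex V and 0 higher in complex II. Over all tested genes 19.2% were then lower and 10.6% higher. The width correction gave 5 lower and 2 higher in complex I and 0 higher in complex II, beside 20.7% and 11.6% of all tested genes. The neighbourhood offset gave 1 lower in complex III, beside 13.6% lower over all tested genes. At an adjusted p under 0.05, 19 members were lower and 7 higher, beside 22.8% and 21.6% of all tested genes, with 6 and 5 in complex I and 4 lower in complex V. A test against a fold change of 1.2 left 1 lower, COX5A in complex IV, and 0 higher, beside 2.90% and 1.98% of all tested genes. Complexes I, II and V had 0 lower and 0 higher, and complex III had 0 lower. DESeq2 called 6 lower and 1 higher (11.7% and 10.04% of all tested genes), with 0 lower and 0 higher in complexes I and II and 1 lower in complex III.

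With single libraries left out, the members called lower ranged from 6 to 14 and higher from 0 to 5, with a median from -0.051 to -0.0091. Lower and higher calls ranged from 1 to 4 and 0 to 3 in complex I, from 0 to 1 and 0 to 1 in complex II, from 2 to 5 and 0 to 1 in complex IV and from 1 to 3 and 0 to 1 in complex V, and lower calls from 1 to 2 in complex III. The medians ranged from -0.024 to 0.018 in complex I, where the sign turned without WT replicate 2 and without Helz-null replicate 1, from -0.077 to -0.033 in complex III and from -0.073 to -0.019 in complex V. Where 1 library is left in a group, it is assumed to vary like the other group.

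With a replicate block, 13 members were lower and 3 higher, COX7C being the added call, beside 16.8% and 15.3% of all tested genes. With the replicate block and the GC correction together, 20 were lower and 1 higher, beside 20.7% and 11.6% of all tested genes. Complex I then had 7 lower, complex V 4 lower and 0 higher, and complex II 0 higher. The labels give the numbers as replicates and name no pairing. Deviations of same-numbered libraries had a correlation of 0.015 over 9938 genes but 0.34 over the 74 members. Whether same-numbered libraries share a factor was not tested. With RLE scaling, filterByExpr genes and an FPKM filter, the count stayed at 12 lower and 3 higher. Over all genes tested in these settings, 15.1%, 11.5% and 15.0% were lower and 13.9%, 9.83% and 13.4% higher, in that order. With all genes the count was 13 and 3, beside 9.70% and 8.49%. Groups of 2 are too small to search for deviating libraries. At these depths members were estimated with standard errors up to 0.057, and the smallest change called was 0.12 on the log2 scale.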
